A study of Arabidopsis thaliana with 12 samples.

Results

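The very long genes of Arabidopsis thaliana were taken as the nuclear genes whose locus in the authors' deposited RNA table spans at least 10000 bp and is not shared with another gene of the table. SDG2 (AT4G15180) was left out by the rule. This gave 94 genes of the 33557 in the table and of the 29062 nuclear genes with a locus of their own. Neither RNA values nor peaks entered the choice. The median locus was 12283 bp long, with a range of 10034 to 26435 bp, against 1812.5 bp over all nuclear genes with a locus of their own. RefSeq lists 86 of the 94 as protein coding and 8 as pseudogenes. No locus overlapped that of another gene in the table, and 30, 17, 12, 13 and 22 lay on chromosomes 1 to 5. A further 124 genes sat in 47 loci of this size that the table assigns to several genes, and these were not members.

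Most plant genes are short, and the long tail of the length distribution holds large multi-domain proteins such as protein kinases related to TOR, callose synthases, myosins, chromatin remodellers and ubiquitin ligases. Trimethylation of histone H3 at lysine 4 (H3K4me3) sits near the start of transcribed genes, while dimethylation (H3K4me2) extends into gene bodies. A long gene therefore separates a start from a body more clearly than a short gene can. ATX3, ATX4 and ATX5 are SET-domain proteins of the trithorax group, and SDG2, a SET-domain protein as well, also methylates H3K4.

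All plants were of the Columbia (Col-0) accession, 4 weeks old, and grew in a daily cycle of 16 h light (22 °C) and 8 h dark (20 °C). Rosette leaves were used. Wild type and the atx3/4/5 mutant were profiled by RNA sequencing with 2 libraries per genotype, which the authors' deposited table combines into 1 value in FPKM, fragments scaled by transcript length and sequencing depth. Wild type and atx3/4/5 were also profiled for H3K4me2 and H3K4me3, and the sdg2 mutant for H3K4me3, by chromatin immunoprecipitation with 1 library per peak list. The alleles and the number of plants behind a library are not given in the sources used here.

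No spread between libraries can be given, read depth is unknown, and values from whole leaves cannot tell fewer cells of a type from less RNA per cell. The authors' deposited table calls none of the 3 targeted genes lower in atx3/4/5: its FPKM values in wild type and mutant were 4.17 and 4.38 for ATX3 (AT3G61740), 1.05 and 2.88 for ATX4 (AT4G27910), and 3.93 and 3.76 for ATX5 (AT5G53430). Whole-gene values do not check an insertion or point mutation. Among 5 leaf markers, 4 had FPKM values of at least 2165 in both genotypes in the authors' deposited table; all 4 were lower in the mutant without a call (median log2 -1.20), as in LHCB5 with 9889 and 2925 FPKM. LHCB1.3 was listed at 0 in wild type with a status for too many fragments, and at 14877 in the mutant in the authors' deposited table. Root hair and seed markers did not exceed 0.0636 FPKM, while the flower markers AG and PI had 0.182 and 0.303 FPKM in wild type and 0.316 and 1.07 in the mutant in the authors' deposited table, without a call. Whether leaf or flower tissue content has a part in the results on RNA was not tested.

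RNA of the very long genes was higher in atx3/4/5 almost without exception. The authors tested 76 of the 94, and 75 of these had a higher FPKM in the mutant in the authors' deposited table. Calls are those with a status of OK and a q under 0.05 in the authors' deposited table. By that rule 34 of 76 rose (44.7%, exact 95% interval 33.3 to 56.6%) and 0 fell in the authors' deposited table. These genes share their libraries and are not independent draws, so the interval gives counting error only and no spread between plants. The background over all 19021 tested genes of the authors' deposited table was 4.92% higher and 5.4% lower. Most of those genes are far shorter. Of 939 tested genes of 5 to 10 kb with a locus of their own, 145 (15.4%) were called higher and 8 lower. Calls were not matched for fragment number, which is not given. With the table's unadjusted p under 0.05, 58 of the 76 were higher and 0 lower, against 11.9% and 13.7% of all tested genes in the authors' deposited table.

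**Figure D1:**
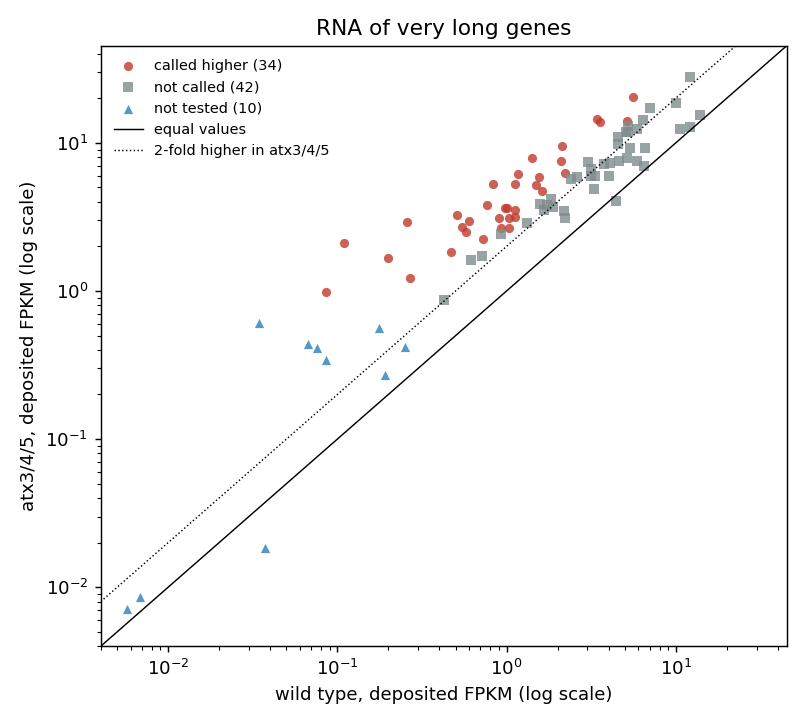
FPKM in wild type (x axis) and atx3/4/5 (y axis) of 86 very long genes, from the authors' deposited table, both axes on a log scale; points are genes by call, and the 8 genes listed at 0 in a genotype are not drawn. Of the tested genes, 75 of 76 lie above the line of equal values and 56 lie at or above the dotted line of a 2-fold difference.

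The shift was that of a broad class and not of a few genes. Over the 56 members that reached 1 FPKM in wild type and mutant, the median log2 difference (atx3/4/5 over wild type) was 1.18, with quartiles of 0.83 and 1.498, from the values of the authors' deposited table. The same median was 0.74 over genes of 5 to 10 kb and -0.06 over all nuclear genes with a locus of their own. Median FPKM of the tested members was 2.11 in wild type (range 0.0855 to 13.9) and 5.51 in atx3/4/5 (range 0.869 to 27.7) in the authors' deposited table. In wild type 20 of the 76 lay under 1 FPKM, and in the mutant 2 did, by the values of the authors' deposited table. The exception in direction was AT1G72270, for which the authors' deposited table gives 4.42 FPKM in wild type and 4.02 in the mutant (log2 -0.14, q = 0.897).

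The difference climbed with length across the whole genome. Its median, over genes that reached 1 FPKM in wild type and mutant in the authors' deposited table, was -0.64 for loci of 0.5 to 1 kb, -0.33 for 1 to 2 kb, -0.05 for 2 to 3 kb, 0.30 for 3 to 5 kb and 0.74 for 5 to 10 kb. It went on climbing inside the very long class. The median was 1.004 for loci of 10 to 12 kb (26 genes), 1.16 for 12 to 14 kb (18 genes) and 1.42 for longer ones (12 genes). The calls in the authors' deposited table followed: 11 of 33 tested genes rose in the shortest of these steps, 10 of 25 in the middle step and 13 of 18 in the longest. FPKM values over all genes of the authors' deposited table summed to 1.09911e+06 in wild type and 717345 in the mutant. The columns of the genotypes thus differ in their total, and the part of this in the trend with length was not tested. RNA integrity, fragment length and read coverage along transcripts can act on long transcripts as a class. They are not given, and their part was not tested.

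**Figure D2:**
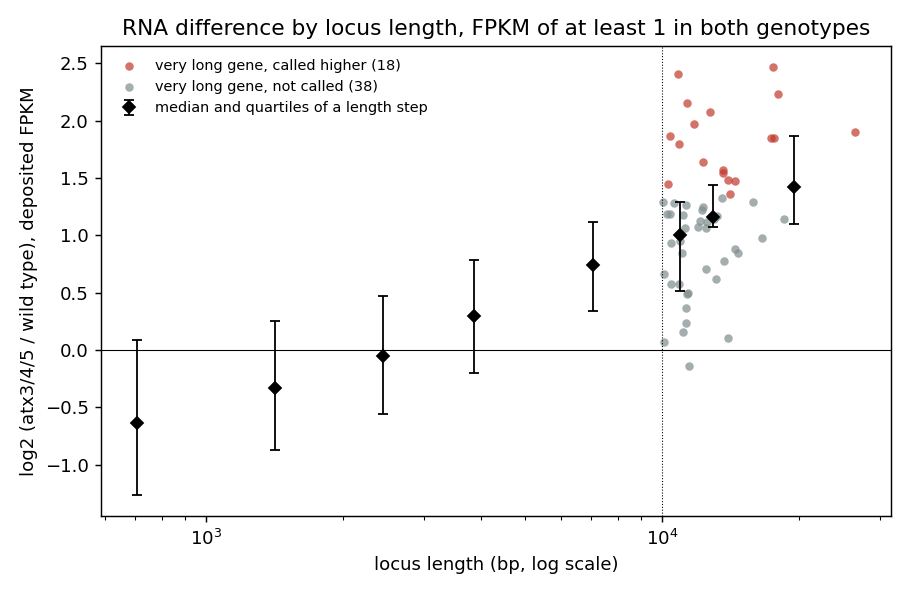
Log2 ratio of FPKM, atx3/4/5 over wild type, against locus length on a log axis. Diamonds with bars are medians and quartiles by length step, over nuclear genes with their own locus that reached 1 FPKM in both genotypes. Dots are the 56 very long genes that reached 1 FPKM in both genotypes, and the dotted line marks 10000 bp. Medians climb from -0.64 in the shortest step to 1.42 in the longest.

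Within the class, the genes with the least RNA in wild type had the largest ratios. The Spearman correlation between wild-type FPKM and log2 difference was -0.72 across the 76 tested genes, and that between length and log2 difference was 0.26; wild-type FPKM enters both sides of the former, and genes are not independent replicates. Called members had a median wild-type FPKM of 1.02 and those tested but not called one of 4.05 in the authors' deposited table. Binned instead by the mean FPKM of both genotypes, very long genes had median log2 differences of 2.04 (mean of 0.5 to 2 FPKM, 18 genes), 1.56 (2 to 4, 20 genes), 0.94 (4 to 8, 23 genes) and 1.20 (8 to 16, 14 genes). Genes of 1 to 2 kb in the same 4 bins had medians of -0.04, -0.07, -0.20 and -0.30, and genes of 5 to 10 kb had 1.13, 1.02, 0.79 and 0.69. Very long genes were thus higher than shorter genes of like RNA level in each of these bins. The bins were added after the values had been seen.

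MDN1 was the only gene both among the 5 longest members and among the 6 largest ratios. AT1G48090, at 26435 bp the longest (chromosome 1, 17732010 to 17758444 on TAIR10), had an FPKM of 1.56 in wild type and 5.83 in the mutant in the authors' deposited table (3.74-fold, q = 0.00325). MDN1 (AT1G67120; chromosome 1, 25069562 to 25095526), the midasin ATPase that removes assembly factors from maturing large ribosomal subunits, went from 0.110 to 2.10 in the authors' deposited table, 19.1-fold and the largest ratio among called members (q = 0.00184). RRP5 (AT3G11964), which processes pre-ribosomal RNA, went from 0.826 to 5.25 in the authors' deposited table (6.36-fold, q = 0.00184). ILA (AT1G64790), a relative of the yeast translation regulator Gcn1, had 6.40 and 14.1 FPKM and was not called by the authors' deposited table (q = 0.106). Of the 3 genes put in a group of ribosome assembly and translation, 2 rose, against 44.7% of all tested members. This group was made after the values had been seen and need not be complete.

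Other large ratios among called members included those of AT5G49680, GMI1 and AT4G30990. AT5G49680 went from 0.0855 to 0.985 FPKM in the authors' deposited table (11.5-fold, q = 0.00325). GMI1 (AT5G24280), named for its induction by gamma irradiation and mitomycin C, went from 0.258 to 2.94 (11.38-fold, q = 0.00184 in the authors' deposited table). AT4G30990 went from 0.511 to 3.27 FPKM (6.39-fold, q = 0.00184 in the authors' deposited table). Counts are not given, so how many fragments a ratio rests on at wild-type values this low is unknown.

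The named members were also read by function, in groups made after their values had been seen. Counts by group, here and below, stand beside 44.7% of all tested members and 4.92% of all tested genes called higher. Groups this small cannot be set apart from the share of the class. Genes of chromatin, transcription and RNA export rose in 5 of 7 cases in the authors' deposited table. AT2G17930 and AT4G36080, listed for chromatin and transcription, were not put in this group. Both were called higher, from 1.12 to 5.29 and from 0.541 to 2.69 FPKM in the authors' deposited table. The chromatin remodellers CHR4 (AT5G44800) and CHR5 (AT2G13370) went from 0.770 to 3.78 and from 1.13 to 3.52 FPKM in the authors' deposited table. NUA (AT1G79280), the nucleoporin at the basket of the nuclear pore, went from 0.596 to 2.96, and THO2 (AT1G24706), a subunit of the complex that couples transcription to mRNA export, from 1.04 to 3.08, both in the authors' deposited table. NRPC2 (AT5G45140), the second-largest subunit of RNA polymerase III, went from 1.48 to 5.17 (3.48-fold, q = 0.0127 in the authors' deposited table). RGD3 (AT3G54280), the plant BTAF1, had 2.41 and 5.73 FPKM in the authors' deposited table (q = 0.0698), and GCT (AT1G55325), the Mediator subunit MED13, had 3.34 and 5.98 (q = 0.239), so neither was called.

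Genes of protein turnover and quality control rose in 3 of 4 cases, against 44.7% of all tested members and 4.92% of all tested genes. UPL2 (AT1G70320), a HECT-type ubiquitin ligase, went from 3.40 to 14.4 FPKM in the authors' deposited table, PA200 (AT3G13330), an activator of the proteasome, from 5.58 to 20.4, and EBS1 (AT1G71220), the glucosyltransferase that checks glycoprotein folding, from 5.15 to 14.1. EMB2771 (AT5G05560), subunit APC1 of the anaphase-promoting complex, had 0.922 and 2.42 FPKM and missed the threshold in the authors' deposited table (q = 0.057). BIG (AT3G02260), a very large protein needed for auxin transport, went from 1.42 to 7.86 FPKM (5.53-fold, q = 0.00184 in the authors' deposited table).

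TOR (AT1G50030), the kinase that couples nutrients to growth, went from 2.09 to 7.53 FPKM in the authors' deposited table (3.61-fold, q = 0.00982). Its partners RAPTOR1, with 12.5 and 18.2 FPKM, and LST8-1, with 70.0 and 48.0, were not called by the authors' deposited table. ATR (AT5G40820), the kinase of the replication checkpoint, was not tested and had 0.192 and 0.270 FPKM, and its partner ATRIP had 1.51 and 2.11 without a call in the authors' deposited table.

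Of the 10 members on the list for membranes and lipid transfer, 9 were tested and 7 rose in the authors' deposited table. The share was 44.7% over all tested members and 4.92% over all tested genes. SPI (AT1G03060), a BEACH-domain protein of membrane traffic, went from 0.972 to 3.64 FPKM in the authors' deposited table (q = 0.00831). SAB (AT1G58250), SABRE of cell expansion, went from 1.13 to 3.13 (q = 0.0362) and SHBY (AT5G24740), SHRUBBY of root growth, from 0.905 to 3.09 (q = 0.00654), both in the authors' deposited table. GRV2 and ATMIN7 are not on that list and were chosen after their values were seen. GRV2 (AT2G26890), which acts in endosomal traffic and gravitropism, had 5.08 and 11.9 FPKM and was not called (q = 0.0706 in the authors' deposited table). ATMIN7 (AT3G43300), a guanine nucleotide exchange factor for ARF proteins, had 5.90 and 12.3 (q = 0.135 in the authors' deposited table).

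Callose synthases, the membrane enzymes that make the cell wall glucan callose, were the largest family with 8 members, of which 5 were tested. CALS1 (AT1G05570) alone rose, from 3.54 to 13.9 FPKM in the authors' deposited table (q = 0.00557). GSL10 (AT3G07160) had 10.05 and 18.5 FPKM, GSL03 (AT2G31960) 6.53 and 9.14, GSL12 (AT5G13000) 13.9 and 15.5, and GSL11 (AT3G59100) 0.717 and 1.72, none called in the authors' deposited table. GSL09, CALS5 and CalS7 were not tested and stayed at or under 0.419 FPKM in both genotypes in the authors' deposited table. Log2 differences of the 5 tested synthases ran from 0.15 to 1.97.

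A group of myosins, kinesins and microtubule genes held 1 call among 4 tested. AIR9, also a microtubule-associated protein, was not put in this group. It had 4.58 and 7.50 FPKM and was not called (q = 0.308 in the authors' deposited table). MOR1 (AT2G35630), a microtubule-associated protein, went from 2.23 to 6.22 FPKM in the authors' deposited table (q = 0.0303). The class XI myosins XIK, MYA1 and XI-I had ratios of 1.49, 2.27 and 2.10 and were not called by the authors' deposited table. The phragmoplast kinesins POK1 and POK2 and the myosin XIA were too low to be tested, at or under 0.0756 FPKM in wild type and between 0.412 and 0.612 in the mutant in the authors' deposited table.

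Transporters held no call among 4. ABCC1 (AT1G30400) and ABCC2 (AT2G34660), vacuolar pumps of the ABC family, had nearly the same wild-type FPKM of 12.2 and 12.1, and 27.7 and 12.7 in the mutant in the authors' deposited table (q = 0.0841 and 0.94). The neighbouring acetyl-CoA carboxylase genes also differed. ACC2 (AT1G36180), the form targeted to plastids, went from 0.200 to 1.66 FPKM, 8.27-fold (q = 0.00184 in the authors' deposited table). ACC1 (AT1G36160), the cytosolic form, had 6.99 and 17.0 FPKM, 2.44-fold, without a call (q = 0.0676 in the authors' deposited table). These pairs are close in sequence, so reads may be split between copies, and the difference between their ratios was not tested.

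Lists of complexes were also written down from general knowledge, with earlier results of these data known. Of their 54 genes, 31 were very long members and 24 of these were tested. Of the 24, 15 rose and 0 fell in the authors' deposited table (median log2 difference 1.85). These genes are part of the 76 tested members, of which 44.7% rose, so their count is no separate check on the class. Among all tested genes of 5 to 10 kb, 15.4% rose in the authors' deposited table. A further 15 genes on these lists had tested loci of their own between 6093 and 9986 bp, and 8 of these rose (median 1.48 in the authors' deposited table), namely the chromatin genes BRM, PIE1, INO80, HAC1, MED12 and SDG8 and the splicing factors PRP8A and BRR2A. The 31 listed partners of the same complexes had a median locus of 3313 bp. ARP6, with a shared locus of 10252 bp, RAPTOR1 with 8718 bp and RAD50 with 8579 bp are long themselves. The partners held 0 calls upward and 2 downward in the authors' deposited table, against 4.92% and 5.4% of all tested genes. These counts are too small to set apart from those shares. The partners' median log2 difference was 0.49, and 24 of the 31 had a higher value in the mutant. CAF1A and CAF1B, deadenylases of the CCR4-NOT complex, were the 2 that fell, from 374 to 34.6 and from 48.6 to 8.77 FPKM in the authors' deposited table.

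In chromatin, every protein-coding member carried H3K4me2. Wild-type H3K4me2 peaks overlapped 86 of the 94 loci by at least 1 bp (91.5%, exact 95% interval 83.9 to 96.3%), against 72.2% of genes of 5 to 10 kb and 50.03% of all nuclear genes with a locus of their own. The 8 without a peak were the pseudogenes, which also had no H3K4me3 peak in any list and at most 0.0216 FPKM in the authors' deposited table. Covered loci held 383 peaks in all, a median of 4 and at most 10 per gene, and the median cover was 5698 bp or 42.8% of the locus. Genes of 5 to 10 kb with a peak had nearly the same share, 44.2%, over 2741.5 bp.

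The share ran from nearly the whole locus to a small part of it. BIG and DEK1 (AT1G55350), the membrane calpain of epidermal identity, were both under H3K4me2 along 93.5% of the locus in wild type, and UPL2 along 85.1%. The lowest shares among loci with a peak belonged to GSL09 (AT5G36870) with 6.83%, POK1 (AT3G17360) with 10.7% and GSL11 with 13.4%. GSL09 was listed at 0 FPKM in wild type and POK1 at 0.0756 in the authors' deposited table. Wild-type FPKM and the H3K4me2 share had a Spearman correlation of 0.16 across the 76 tested genes, and untested protein-coding members, with FPKM values at or under 0.252 in wild type, still had a median share of 33.2% and a peak in 10 of 10 cases.

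H3K4me3 formed a single short peak. It was present on 78 of 94 loci in wild type (83.0%, interval 73.8 to 89.9%), with exactly 1 peak on 74 of them, against 64.3% of genes of 5 to 10 kb and 44.8% of all nuclear genes with a locus of their own. The median cover was 800 bp, or 6.49% of the locus. Cover inside the locus hardly followed locus length. The median was 857 bp in genes of 5 to 10 kb. The Spearman correlation between length and covered bases was -0.06 across the 78 loci. Between genes the cover ran from 101 bp in CalS7 to 1812 bp, over 2 peaks, in AT4G39420. Loci with H3K4me3 but no H3K4me2 numbered 0, those with H3K4me2 alone 8. The largest shares were those of ABCC1 with 12.8%, AT1G72270 with 12.6% and AT5G40450 with 11.7%. The smallest were those of CalS7 (AT1G06490) with 0.949%, EMB2788 (AT4G27010) with 1.21% and MDN1 with 2.14%.

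H3K4me3 lay near an end of the locus and overlapped H3K4me2 there, while H3K4me2 also ran through the body. Strand was not used, so each locus was read from the end whose outer 2000 bp held more wild-type H3K4me3, which could be told for 77 loci. By this choice H3K4me3 must gather at that end, and the place of H3K4me2 and of the mutants' peaks is read against it. In wild type 97.7% of the H3K4me3 bases of these loci lay in that end, 0.24% in the middle (more than 2000 bp from both ends) and 2.08% in the other end. Of the H3K4me2 bases 22.6% lay in the marked end, 67.8% in the middle and 9.61% in the other end. The middle is the longest of these parts, so its share of bases gives no preference for the body. By density wild-type H3K4me2 was higher at the marked end, with a median of 1450 of 2000 bp covered, against 43.5% of the middle. In 73 of the 77 loci the H3K4me3 cover reached across the marked end, so part of a peak may belong to a neighbouring gene. Of the wild-type H3K4me3 bases in all 94 loci 77.3% were also under H3K4me2, and 9.85% of the H3K4me2 bases were under H3K4me3.

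**Figure D3:**
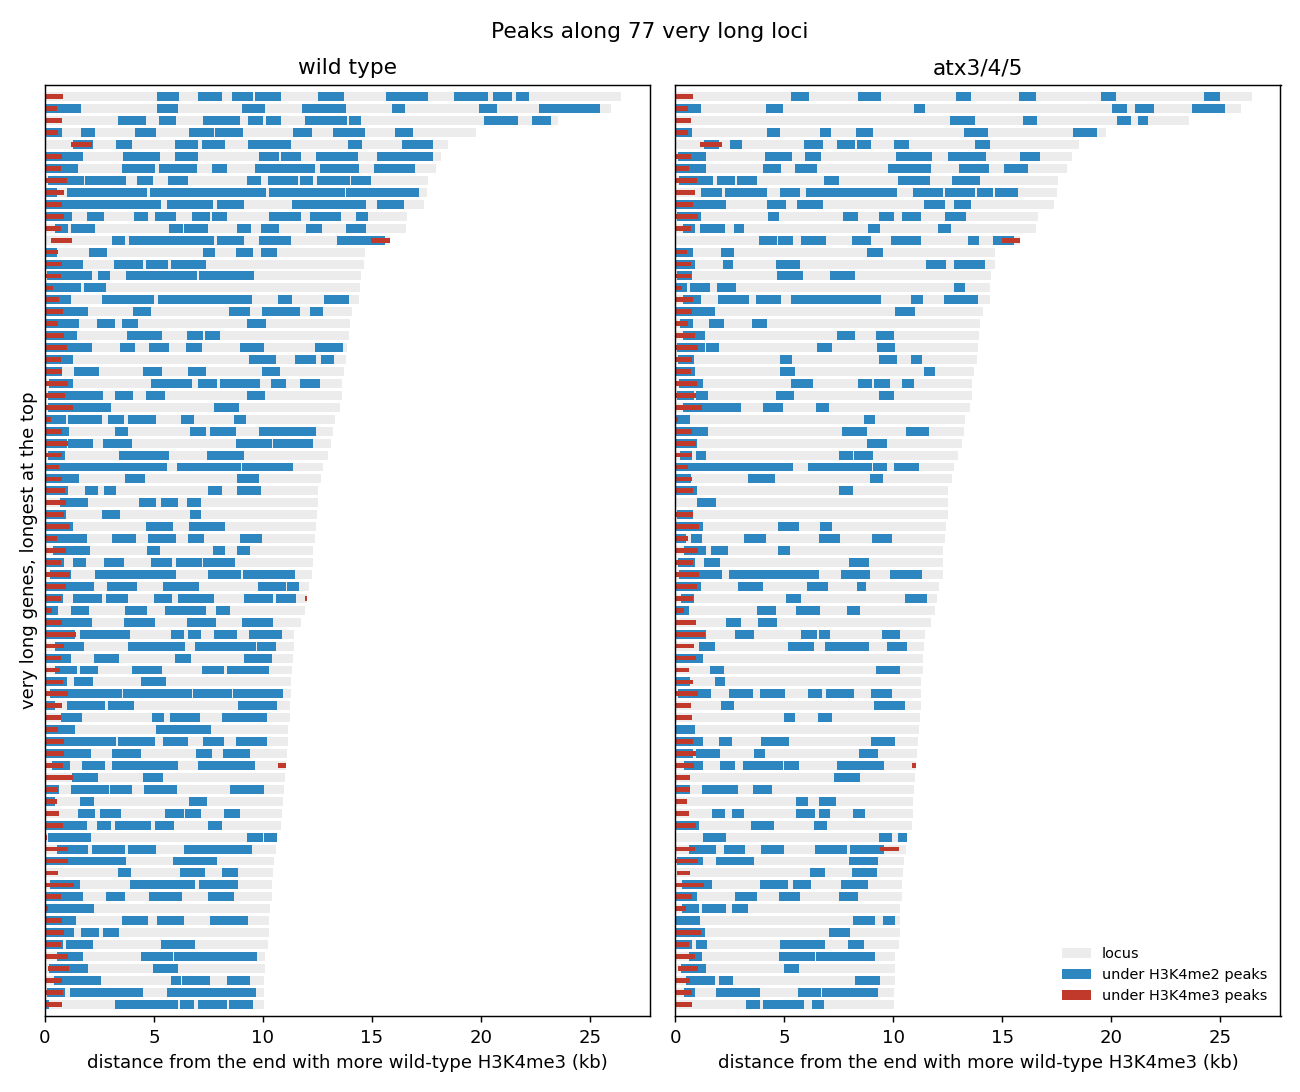
The 77 very long loci that could be read from an end, 1 row per gene and longest at the top, in wild type (left) and atx3/4/5 (right); grey bars are loci, blue parts lie under H3K4me2 peaks and red parts under H3K4me3 peaks, and the x axis is the distance in kb from the marked end. H3K4me3 sits at the marked end in both genotypes, while blue blocks are spread over the body and cover less of it in the mutant.

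A few loci departed from this plan. In AT1G48090 wild-type H3K4me3 covered the outer 810 bp and the nearest H3K4me2 base lay 5155 bp away. In AT4G39420 wild-type H3K4me3 covered 960 bp in 1 end and 852 bp in the other. ACC2 was left out of the orientation, because its whole peak of 1019 bp lay more than 2000 bp from both ends of the annotated locus; it kept 954 bp in atx3/4/5 and 864 bp in sdg2. ILA was the only oriented locus with wild-type H3K4me3 in the middle, with 152 bp there beside 804 bp in the marked end.

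In atx3/4/5 the very long genes kept H3K4me2 but over fewer bases. All 86 marked loci still had a peak, and 80 of the 86 (93.0%) were covered less than in wild type, near the 90.1% of marked genes of 5 to 10 kb and 87.4% of all marked nuclear genes. The median cover fell from 5698 to 2951.5 bp, and the median locus kept 59.2% of its wild-type bases (65.4% in genes of 5 to 10 kb and 71.2% over all nuclear genes with a locus of their own). Cover was lower by 1.5-fold or more in 59 of 86 (68.6%, interval 57.7 to 78.2%), against 46.4% of all nuclear genes with a wild-type peak, and higher by as much in 0, against 1.74%. No very long gene lost its last peak, against 24.9% of all nuclear genes with a wild-type peak; a locus with several peaks can lose more of them before none is left.

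The mutant list is shorter, with 16650 H3K4me2 peaks against 20585. When the wild-type list was held to its 16650 highest-scoring peaks, an alternative added after the data had been seen, 35 of 86 very long genes (40.7%) were lower by 1.5-fold or more. The share was then 39.0% in genes of 5 to 10 kb and 39.8% over all nuclear genes, so the larger loss in very long genes was not seen with lists of equal length. The median locus kept 74.8% of its wild-type bases there, and 67 of 86 were covered less. With 1 library per list the difference has no replicate check, and the part of sequencing depth was not tested.

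The largest losses in bases were those of AT5G23110, from 13294 to 6074 bp, AT4G17140, from 10009 to 2897 bp, and AT1G48090, from 10426 to 4755 bp. These are also among the 10 longest members, so they had more bases to lose. SPI was nearly unchanged, with 9669 and 9609 bp, GRV2 had 8622 and 8848 bp, and UPL2 10858 and 10032 bp. BIG kept 12500 of 16370 bp and DEK1 6695 of 10538 bp. Members called higher in RNA and those tested but not called kept medians of 58.2% and 60.6% of their cover.

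**Figure D4:**
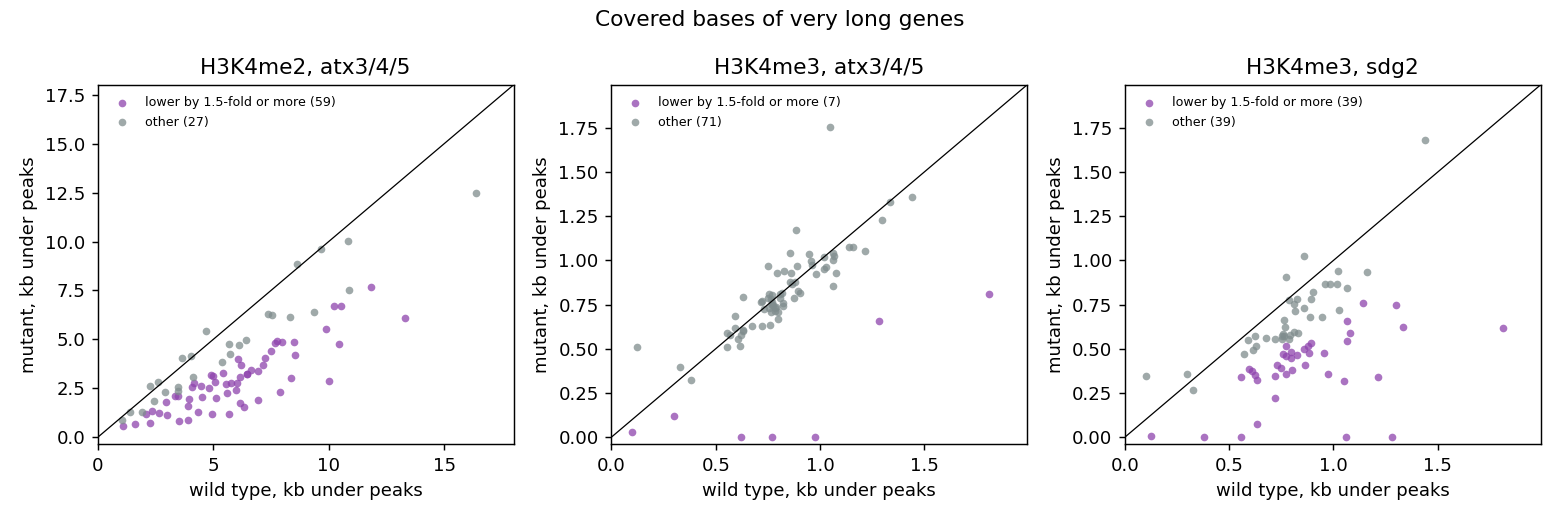
Kilobases under peaks in wild type (x axis) and mutant (y axis) of the very long genes with a wild-type peak, for H3K4me2 in atx3/4/5, H3K4me3 in atx3/4/5 and H3K4me3 in sdg2; the line marks equal cover. Genes lower by 1.5-fold or more number 59 of 86, 7 of 78 and 39 of 78.

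By the lists as deposited, H3K4me2 lost a larger part of its bases in the body than in the marked end. Over the 77 oriented loci, H3K4me2 bases in atx3/4/5 came to 70.0% of wild type in the marked end, 56.2% in the middle and 59.0% in the other end. The median locus with wild-type cover in that part kept 70.2%, 52.8% and 35.9%. Place was not read with lists of equal length, so the part of the shorter mutant list in this difference was not tested. When each locus was divided into 10 equal parts, part 1 was covered by H3K4me2 along 73.3% in wild type and 58.3% in atx3/4/5 on average. In parts 3 to 9 the mean lay between 42.7 and 49.2% in wild type and between 21.0 and 30.1% in the mutant. In part 10 it was 20.3% and 9.93%. H3K4me3 covered part 1 along 63.0% in wild type, 58.6% in atx3/4/5 and 41.1% in sdg2, and 0 bases of parts 3 to 8 in all 3 genotypes.

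**Figure D5:**
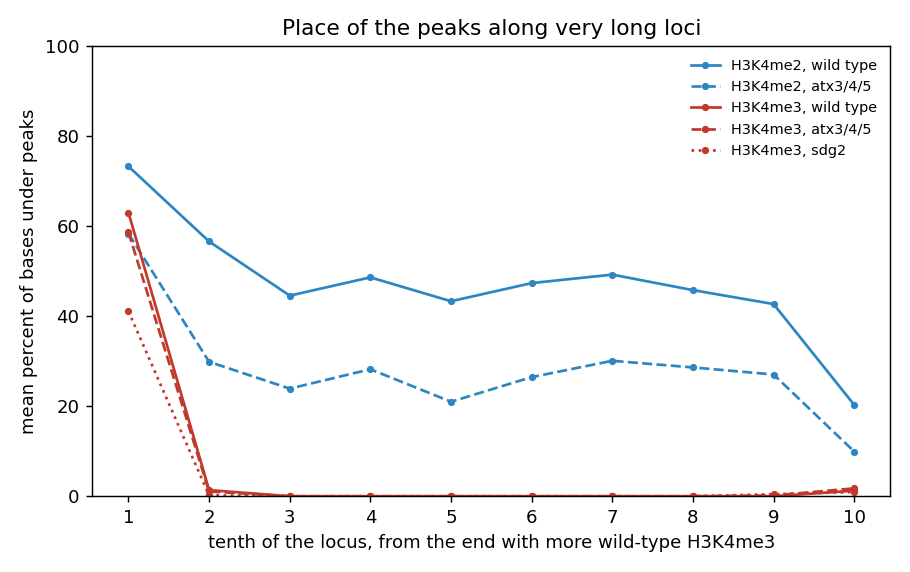
Mean percent of bases under peaks in each of 10 equal parts of 77 very long loci, counted from the end with more wild-type H3K4me3; blue lines are H3K4me2, red lines H3K4me3, and line styles are genotypes. H3K4me2 in atx3/4/5 runs below wild type in every part, and H3K4me3 is lowest in sdg2 in part 1, at 41.1%.

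H3K4me3 in atx3/4/5 differed little from wild type. A peak was found on 76 of the 94 loci, the median locus with a wild-type peak kept 96.3% of its bases, and 7 of 78 (8.97%, interval 3.68 to 17.6%) were lower by 1.5-fold or more, against 12.4% of all nuclear genes with a wild-type peak. Cover higher by as much was found in 2 of 78, against 1.14%. AIR9 (AT2G34680), a microtubule-associated protein, ATR and ESP (AT4G22970), the separase that releases sister chromatids, had no H3K4me3 peak left, 3 of 78 against 9.3%, from 976, 622 and 771 bp in wild type. AT4G39420 went from 1812 to 808 bp: the cover of 960 bp at its marked end was gone and that at the other end was 808 bp. ACC1 differed the other way, with 1050 bp in wild type and 1756 bp in atx3/4/5, of which 843 bp lay in the end that had none in wild type.

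In sdg2 H3K4me3 covered fewer bases on most very long genes. A peak was present on 77 of the 94 loci with a median of 553 bp, 73 of the 78 loci with a wild-type peak (93.6%) were covered less, near the 92.7% over all nuclear genes with a wild-type peak, and the median locus kept 68.3% of its bases. Cover was lower by 1.5-fold or more in 39 of 78 (50%, interval 38.5 to 61.5%), against 47% of all nuclear genes with a wild-type peak, and higher by as much in 1 of 78, against 0.807%. These shares lie close to the background. MDN1, GSL10, AT5G40450 and ABCC2 had no peak left, 4 of 78 against 10.8%, from 556, 381, 1282 and 1062 bp. UPL2 went from 632 to 76 bp and AT2G17930 from 722 to 221 bp. AT1G72270 went the other way, with 1440 bp in wild type and 1681 bp in sdg2. Both mutants were read against the same wild-type list, and no RNA of sdg2 was analysed here.

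Of the 16 loci without wild-type H3K4me3, 1 had a peak in atx3/4/5 and 3 had one in sdg2, counts too small to set against the 2.70% and 7.69% of all nuclear genes without wild-type H3K4me3. XIA (AT1G04600), a class XI myosin, had 125 bp in atx3/4/5 and 91 bp in sdg2. The kinesin genes POK2 (AT3G19050) and POK1 had 635 and 352 bp in sdg2 alone. GMI1 had no H3K4me3 peak in any list although its RNA was called higher, and its H3K4me2 cover was 2361 bp in wild type and 1362 bp in atx3/4/5. GSL11 likewise had none, with 1405 and 1267 bp of H3K4me2.

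Just inside the length threshold, CHR4 (10034 bp) had 61.6% of its locus under wild-type H3K4me2 and 30.6% in atx3/4/5, and AT5G15680 (10046 bp) had 82.8% and 61.3%. Just outside, GSL04 (AT3G14570, 9986 bp), a callose synthase, had 0.957 and 0.974 FPKM in the authors' deposited table and 43.5% and 61.5% of its locus under H3K4me2. XID (AT2G33240, 9973 bp), a myosin, was listed at 0 in wild type and had 39.1% under H3K4me2 in wild type and no peak in atx3/4/5.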

How the data were processed

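The authors' deposited table gives each gene 1 FPKM value per genotype with the status, p-value and q-value of the comparison; TAIR10, TopHat2 2.0.10 and Cufflinks 2.2.1 are named in the submitters' processing notes. Peak lists were deposited by the authors with a score per peak (lowest 50, read as 10 times the negative log10 of the p-value), from 1 ChIP library each; the notes name Bowtie 1.0.1 and MACS 1.4.2, and the role of each tool is inferred. Score is the authors' value and was used only to filter or rank peaks within a list. Inputs and depth were not analysed here, and no source used here says whether reads were counted by strand, so antisense reads cannot be told apart. The labels do not say that the 2 RNA libraries per genotype are from separate plants, and the p-values may then hold a technical spread.

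Log2 ratios were computed from the deposited FPKM values with no pseudocount. Peaks were merged within a list and their bases within each locus counted with Python 3.11.15 and pandas 2.3.3. The counting was tested on 400 simulated loci and recovered the covered bases of 400. Intervals are exact (Clopper-Pearson) at 95% and cover counting error only, as if genes were independent draws, which they are not. No test was run on 1 value per genotype. Named genes were those of fixed rules (longest, largest ratios, largest and smallest shares, largest losses, genes at the threshold, lists of complexes); other genes named by function or as exceptions were chosen after their values were seen. Members, lists and rules were chosen with earlier results of these data known. RefSeq (TAIR10.1) was matched for 94 of 94 members and gave gene types and symbols, and 55 have a symbol other than the identifier. Names such as MDN1, RRP5 and SHBY did not come from it. Likeness of proteins, planned for pairs of copies, was not computed, and 0 columns of per-sample values were left unused.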

Additional observations from a re-analysis of the deposited data

How the results depend on the processing

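No paired analysis was possible because the deposited table holds 1 value per genotype, and for the same reason no replicate could be left out. Of 57 alternatives 28 kept their result and 29 moved it. A share of genes counted as kept while it lay inside the exact interval of the main result. A median or a share of bases counted as kept only if it was unchanged. Percentages cannot be negative, so a reversed direction could be seen only for the median log2 difference, where 0 were found. Called higher were 28.9% of tested members with q under 0.01, 32.1% with at least 1 FPKM in both genotypes and 53.5% from 12000 bp. The median log2 difference was 1.14 with a pseudocount of 0.1, 0.94 with 1, 1.29 without the FPKM floor, 1.23 centred on all nuclear genes and 1.24 from 12000 bp. Without pseudogenes, added after seeing the data, 100% of members had H3K4me2 in either genotype, and 90.7%, 88.4% and 89.5% had H3K4me3 in wild type, atx3/4/5 and sdg2. With a score of at least 100, H3K4me2 was found on 77.7% of members in atx3/4/5, and the median share of the locus was 27.7% in wild type, 10.9% in atx3/4/5, and for H3K4me3 5.50% in atx3/4/5 and 3.52% in sdg2. With at least 500 bp, H3K4me3 in sdg2 was found on 48.9%. Over members with a peak the median shares were 42.8% and 22.5% for H3K4me2 and 6.49%, 6.27% and 4.20% for H3K4me3 in wild type, atx3/4/5 and sdg2, against 40.8%, 20.4%, 5.84%, 5.56% and 3.79% over all members. A 2-fold threshold left 36.0% lower in H3K4me2 and 20.5% lower in sdg2 H3K4me3; lists of equal length, added later, left 40.7% lower in H3K4me2. The middle held 63.4% of wild-type and 56.0% of atx3/4/5 H3K4me2 bases at a score of 100, against 67.8% and 64.0%, and 0.24% of atx3/4/5 H3K4me3 bases against 0.23%. The causes were not tested, beyond what each setting removes. Read depth is unknown, so no floor could be set for loci with low RNA.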

Other observations

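The 124 genes that share a very long locus with another gene of the table were left out above, because a length and a mark of the locus cannot be assigned to them. The authors' deposited table tested 78 of them and called 6 upward and 0 downward, against 4.92% upward and 5.4% downward over all tested genes. They include SYD, the SWI/SNF remodeller, with 0.596 FPKM in wild type and 4.44 in atx3/4/5 and a call, and POL2A, the catalytic subunit of DNA polymerase epsilon, with 0.376 and 1.62 and a call, both in the authors' deposited table. UPL1, a ubiquitin ligase, had 1.66 and 7.81 FPKM without a call (q = 0.16 in the authors' deposited table), and ATM, the kinase of the double-strand break response, had 0.579 and 1.20 (q = 0.436 in the authors' deposited table).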
